A study of Mus musculus with 6 samples.

Results

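Semaphorins are guidance proteins that steer growing axons, blood vessels and migrating neural crest cells, and plexins are the receptors that carry their signal into the cell. Class 3 semaphorins are secreted and mostly need a neuropilin, Nrp1 or Nrp2, as the binding partner of a class A plexin, whereas classes 4 to 7 are held in the membrane and bind plexins directly. In sensory ganglia the family is best known for the repulsion of nociceptive axons by Sema3A through Nrp1, and for keeping proprioceptive axons apart from other axons in the spinal cord through Plxna1 and class 6 semaphorins. Family members were taken by gene symbol from the deposited table of lumbar dorsal root ganglia, as every Sema3 to Sema7, Plxn and Nrp gene. The rule found 31 of 24264 genes, of which 20 were semaphorin ligands, 9 were plexins and 2 were neuropilins.

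The ganglia came from E12.5 embryos of mixed C57/Bl6 x 129/SvEv background, and their polyadenylated RNA was sequenced with a stranded kit. The 3 miR_cKO libraries were homozygous for a floxed microRNA cluster (miR-183-96-182) and carried Wnt1-Cre. That driver is active in neural crest cells, the source of the ganglion's neurons and glia, while its vessels, macrophages and any adjoining muscle have another origin. The 3 control libraries had an intact cluster: controls 1 and 3 carried Wnt1-Cre, and control 2 was titled wild type. The precursors Mir183, Mir96 and Mir182 are listed at 0 in all 6 libraries, so the table does not check the deletion. Whether a library held the ganglia of a single embryo or of several is not stated. The p-values measure the spread between these libraries, which may in part be technical.

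Sensory neuron and glial markers were present in every library, with Isl1, a homeodomain factor of sensory neurons, at 143 RPKM or more and Sox10, a factor of neural crest glia, at 38.4 RPKM or more. RPKM counts reads per kilobase of transcript, scaled to the depth of the library. They stood apart in tissue content across both groups. Summed over 18 sensory neuron markers, the level was 4089, 3387 and 2628 RPKM in miR_cKO 1 to 3, against 3640, 2714 and 3409 RPKM in controls 1 to 3. Summed over 12 muscle markers, it was 31.4, 35.1 and 44.7 RPKM in miR_cKO 1 to 3, against 32.8, 190 and 145 RPKM in controls 1 to 3. Mesenchyme markers, 13 in number, summed to 212, 284 and 315 RPKM in miR_cKO 1 to 3, against 242, 409 and 444 RPKM in controls 1 to 3. Xist, the RNA that coats an inactive X, was at 96.0 RPKM in miR_cKO 1 and at no more than 0.0890 RPKM in any other library. Ddx3y, a gene of the Y chromosome, was at 0.00979 RPKM in miR_cKO 1 and at 11.3 to 13.6 RPKM in the others. The RNA of miR_cKO 1 was thus of female source and that of the others male, so it came from other embryos than theirs. Sex is not balanced between the groups, and its part in the levels was not tested.

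The 3 deleted microRNAs are shown first, since their seeds define the sites searched for in the family. Capitals mark the seed, bases 2 to 8 from the 5′ end, and the sequences are those of RefSeq (GRCm38.p6, mouse chromosome 6, minus strand).
miR-183-5p: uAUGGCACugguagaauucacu
miR-96-5p: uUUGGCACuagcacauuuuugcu
miR-182-5p: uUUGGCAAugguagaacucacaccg
The seeds of miR-183 and miR-96 differ in their first base, and those of miR-96 and miR-182 in their last base.

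Sites were matched in the longest annotated 3 prime UTR of each gene, on the strand of the message. A 7mer is a match to the whole seed, which is GTGCCAT for miR-183, GTGCCAA for miR-96 and TTGCCAA for miR-182. A match to all but the last base of the seed with an adenine after it also counts as a 7mer, which is TGCCATA for miR-183 and TGCCAAA for miR-96 and miR-182 alike. An 8mer is a whole seed match with an adenine after it, and a site was counted once where motifs overlapped. Of the 29 family members that passed the filter on low values, 10 carried a site, or 34.5%, against 36.2% of 11198 tested genes with an annotated 3 prime UTR. None of the 29 carried an 8mer, against 9.98% of those tested genes. Across all 31 members there were 15 sites, of which 1 was an 8mer, in Sema3e, a gene too low to be tested. The sites of the receptors and of the class 3 and 4 ligands that the results below turn on are printed with 11 bases on either side and the match in capitals, from GENCODE M21 (mm10).
Plxna4 first site: tgcagaatctgGTGCCATtgctatgcaga
Plxna4 second site: aatgtgtcttgGTGCCATgaagtcaagtt
Plxna3: cacgtccctacTGCCAAAtttcctcagtg
Sema3d: aaaacttatatTGCCATAaaaaaggagaa
Sema4a: tttaccagtcaTGCCATActgtttgggaa
Sema3e 8mer: tctgtaagcatGTGCCATAttgcttctttc

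The Plxna4 sites, at chr6:32149371-32149399 and chr6:32147078-32147106 (minus strand), are both 7mers for miR-183 in a 3 prime UTR of 6221 bases. Among tested genes with a 3 prime UTR from 0.9 to 1.1 times that length, 84.8% carried a site. The Plxna3 site, at chrX:74344250-74344278 (plus strand), is the 7mer shared by miR-96 and miR-182, and 29.8% of genes of like 3 prime UTR length carried a site. Sema3d has a miR-183 7mer at chr5:12586106-12586134 (plus strand), where 66.0% of genes of like length had a site. Sema4a has a miR-183 7mer at chr3:88436185-88436213 (minus strand), where 20.8% did. The Sema3e 8mer lies at chr5:14256480-14256509 (plus strand). Plxna2 and Sema5a carried 2 7mers each, and Plxnb1, Sema4d, Sema6a and Sema6b carried 1 each. No match was found in the longest annotated 3 prime UTR of Nrp1, Nrp2, Plxnb2, Plxna1, Plxnd1, Sema6d, Sema4g, Sema4c, Sema3a or Sema3c. In principal transcripts, searched later, 11 of the 29 members carried a site, or 37.9%, against 33.7% of the tested genes. The gene added by that search was Nrp2.

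Receptor messages were abundant and spread over few genes. Of the 11 receptors 9 averaged at least 10 RPKM over the 6 libraries, as did 7 of the 20 ligands. Receptors summed to 304, 294 and 272 RPKM in miR_cKO 1 to 3, against 302, 303 and 308 RPKM in controls 1 to 3. The sum was 290 ± 16.7 RPKM in miR_cKO and 304 ± 3.63 RPKM in controls (SD, n = 3 each). Ligands summed to 205, 178 and 175 RPKM in miR_cKO 1 to 3, against 186, 179 and 200 RPKM in controls 1 to 3. The ratio of the receptor sum to the ligand sum was 1.56 ± 0.0804 in miR_cKO and 1.62 ± 0.0710 in controls (SD, n = 3 each), and the ranges of the groups overlapped. In bulk ganglia, fewer cells of a type and less RNA per cell cannot be told apart in any of these levels.

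**Figure D1:**
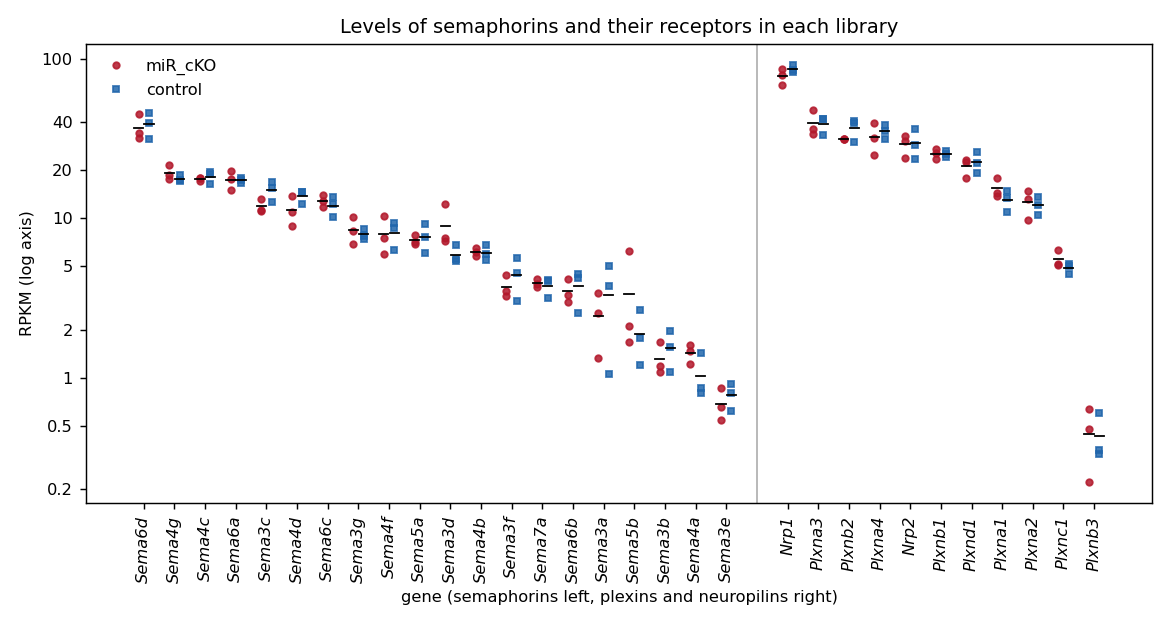
Level of each family member in RPKM on a log axis, with semaphorins at the left and receptors at the right, each in order of the mean over 6 libraries. Red circles are the 3 miR_cKO libraries, blue squares are the 3 control libraries and black bars are group means; the groups overlap for every gene but Sema3d, and the spread is widest for Sema3a and Sema5b.

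Nrp1 was the highest receptor, and the only gene of the family above 50 RPKM. Nrp1 (chromosome 8, 128358604 to 128503363, mm10), the co-receptor of Sema3A and also of VEGF, was at 79.4, 86.0 and 68.4 RPKM in miR_cKO 1 to 3, against 91.3, 84.7 and 82.5 RPKM in controls 1 to 3. It held 27.6% of the receptor sum, and its lowest library, at 68.4 RPKM, was above the highest library of any other member. Its difference was -0.15 on the log2(RPKM + 1) scale, the scale of every difference given here (95% interval -0.37 to 0.08, limma adjusted p = 1.00), and it was -0.06 without miR_cKO 3. Nrp2 (chromosome 1, 62703285 to 62818695), the partner preferred by Sema3F, was at 23.8, 32.8 and 30.3 RPKM in miR_cKO 1 to 3, against 28.8, 36.1 and 23.4 RPKM in controls 1 to 3. Its difference was -0.01 (95% interval -0.43 to 0.41). The ratio of Nrp1 to Nrp2 ran from 2.26 to 3.33 in miR_cKO and from 2.35 to 3.53 in controls, and was lowest in miR_cKO 3.

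Class A plexins, the partners of neuropilins, formed the largest plexin class, with a summed level of 99.2 ± 13.5 RPKM in miR_cKO and 99.0 ± 7.93 RPKM in controls (SD, n = 3 each). Plxna3 (chromosome X, 74329066 to 74344689) was at 47.5, 36.2 and 33.8 RPKM in miR_cKO 1 to 3, against 41.7, 33.3 and 42.0 RPKM in controls 1 to 3, a difference of -0.00017 (95% interval -0.35 to 0.35). Its highest library was miR_cKO 1, the library with Xist. Plxna4 (chromosome 6, 32144268 to 32588192), which acts with Plxna3 in the response of sensory axons to Sema3A, was at 39.7, 31.9 and 24.8 RPKM in miR_cKO 1 to 3. In controls 1 to 3 it was at 38.2, 31.3 and 35.3 RPKM. The fitted difference was -0.14 (95% interval -0.53 to 0.25), so no increase was detectable for this message with 2 miR-183 sites. Plxna1, the receptor of class 6 semaphorins on proprioceptive neurons, averaged 15.3 ± 2.18 RPKM in miR_cKO and 13.0 ± 1.94 RPKM in controls. Plxna2, a receptor of Sema6A, averaged 12.6 ± 2.63 RPKM in miR_cKO and 12.0 ± 1.50 RPKM in controls (SD, n = 3 each).

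Class B plexins, receptors of class 4 semaphorins, were led by Plxnb2 and Plxnb1. Plxnb2 (chromosome 15, 89155549 to 89180788), the receptor of Sema4C, was at 31.4, 31.2 and 31.3 RPKM in miR_cKO 1 to 3, against 29.8, 39.7 and 40.5 RPKM in controls 1 to 3. The 2 controls near 40 RPKM were those with the most muscle and mesenchyme RNA, whose part in the result was not tested. The difference was -0.21 with all libraries (95% interval -0.49 to 0.07, limma adjusted p = 1.00) and 0.07 without controls 2 and 3, a comparison with the single control 1. Plxnb1, the receptor of Sema4D, had the narrowest interval of the family, at a difference of -0.01 (95% interval -0.18 to 0.17), with 25.2 ± 1.80 RPKM in miR_cKO and 25.3 ± 1.03 RPKM in controls (SD, n = 3 each). Plxnb3 stayed at or under 0.637 RPKM in every library and was not tested. Plxnd1, a vascular plexin that binds Sema3E without a neuropilin, averaged 21.2 ± 2.87 RPKM in miR_cKO and 22.4 ± 3.49 RPKM in controls. Its ligand Sema3e was near the bottom of the family, at 0.686 ± 0.164 RPKM in miR_cKO and 0.775 ± 0.148 RPKM in controls (SD, n = 3 each). Plxnc1, the receptor of Sema7A, averaged 5.51 ± 0.684 RPKM in miR_cKO and 4.88 ± 0.361 RPKM in controls.

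The order of receptor levels was clear at 4 of its 10 steps, where the 6-library ranges of neighbours did not overlap. Nrp1 stood above Plxna3, Plxnd1 narrowly above Plxna1 (17.9 RPKM at its lowest against 17.8 RPKM at the highest of Plxna1), Plxna2 above Plxnc1, and Plxnc1 above Plxnb3. Plxna3, Plxnb2, Plxna4, Nrp2, Plxnb1 and Plxnd1 followed each other with overlapping ranges. Among the ligands 2 of 19 steps were clear, that from Sema6d to Sema4g and that from Sema6c to Sema3g.

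Membrane-bound ligands outweighed secreted ones. Class 6 summed to 70.5 ± 8.66 RPKM in miR_cKO and 71.6 ± 6.30 RPKM in controls, class 4 to 63.5 ± 6.37 RPKM in miR_cKO and 64.8 ± 4.27 RPKM in controls, and class 3 to 37.4 ± 2.78 RPKM in miR_cKO and 38.7 ± 2.56 RPKM in controls (SD, n = 3 each). Class 5, marked by thrombospondin repeats, summed to 10.6 ± 2.36 RPKM in miR_cKO and 9.48 ± 2.32 RPKM in controls, and Sema7a, the member held by a lipid anchor, averaged 3.90 ± 0.255 RPKM in miR_cKO and 3.76 ± 0.518 RPKM in controls. The 5 highest ligands, Sema6d, Sema4g, Sema4c, Sema6a and Sema3c, made up 56.0% of the ligand sum.

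Sema6d was the highest ligand. Sema6d (chromosome 2, 124089969 to 124667770), a ligand of Plxna1, was at 44.7, 34.1 and 31.9 RPKM in miR_cKO 1 to 3, against 45.3, 31.3 and 39.3 RPKM in controls 1 to 3. The groups overlapped, with a difference of -0.06 (95% interval -0.46 to 0.33). Sema6a, which binds Plxna2 and Plxna4, was at 19.7, 17.5 and 14.9 RPKM in miR_cKO 1 to 3, against 17.3, 16.6 and 17.8 RPKM in controls 1 to 3, a difference of 0.0008 (95% interval -0.24 to 0.24). Sema6c, another ligand of Plxna1, averaged 12.8 ± 1.11 RPKM in miR_cKO and 11.9 ± 1.68 RPKM in controls, and Sema6b 3.47 ± 0.623 RPKM in miR_cKO and 3.74 ± 1.05 RPKM in controls (SD, n = 3 each).

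In class 4, Sema4g (chromosome 19, 44989101 to 45003397) was at 21.5, 17.5 and 18.6 RPKM in miR_cKO 1 to 3, against 17.1, 17.3 and 18.7 RPKM in controls 1 to 3. Sema4c (chromosome 1, 36548639 to 36558349) was at 17.1, 17.9 and 17.9 RPKM in miR_cKO 1 to 3, against 16.3, 19.4 and 18.8 RPKM in controls 1 to 3. Neither gene's groups were apart, and the difference was 0.11 for Sema4g (95% interval -0.10 to 0.32) and -0.04 for Sema4c (95% interval -0.23 to 0.15). Without miR_cKO 1 that of Sema4g was 0.027. Sema4d, the ligand of Plxnb1, averaged 11.2 ± 2.38 RPKM in miR_cKO and 13.8 ± 1.32 RPKM in controls (difference -0.29, 95% interval -0.65 to 0.06). Sema4f averaged 7.94 ± 2.19 RPKM in miR_cKO and 8.09 ± 1.59 RPKM in controls, and Sema4b 6.14 ± 0.372 RPKM in miR_cKO and 6.08 ± 0.683 RPKM in controls. Sema4a, best known in immune cells, was at 1.61, 1.22 and 1.47 RPKM in miR_cKO 1 to 3, against 0.855, 0.800 and 1.43 RPKM in controls 1 to 3. Control 3 lay within the miR_cKO range, and the difference was 0.27 (95% interval -0.09 to 0.64, limma adjusted p = 1.00). The summed level of 8 macrophage markers was 15.4 to 29.6 RPKM in miR_cKO and 22.1 to 31.1 RPKM in controls.

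The secreted class 3 ligands held the only members with an unadjusted p under 0.05, which were Sema3d and Sema3c. These genes, Sema3a and Sema3e all lie on mouse chromosome 5, between 12383385 (start of Sema3d) and 17730268 (end of Sema3c). Sema3d (12383385 to 12588948) was at 12.2, 7.22 and 7.48 RPKM in miR_cKO 1 to 3, against 6.78, 5.36 and 5.55 RPKM in controls 1 to 3. All miR_cKO libraries were above all controls, with miR_cKO 1 far above the other 5 libraries. The difference was 0.50 (SE 0.19, 95% interval 0.04 to 0.96) and did not pass over all genes (limma unadjusted p = 0.0365, adjusted p = 0.891). Without miR_cKO 1 it was 0.28.

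Sema3c (17574281 to 17730268), a guide of cardiac neural crest, was at 13.2, 11.2 and 11.1 RPKM in miR_cKO 1 to 3, against 16.8, 12.7 and 15.4 RPKM in controls 1 to 3. Only miR_cKO 1 reached into the control range. The difference was -0.31 (SE 0.12, 95% interval -0.59 to -0.02) and did not pass over all genes either (limma unadjusted p = 0.0371, adjusted p = 0.895). The differences of Sema3d and Sema3c thus ran in opposite directions, and neither was called.

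Sema3a and Sema5b varied most between libraries. Sema3a (chromosome 5, 13125414 to 13602565), the main repellent of nociceptive axons, was at 1.33, 2.55 and 3.40 RPKM in miR_cKO 1 to 3, against 1.05, 5.04 and 3.76 RPKM in controls 1 to 3. Controls alone spanned its full 4.81-fold range over the 6 libraries. Its 3 highest libraries, miR_cKO 3 and controls 2 and 3, were those with the highest mesenchyme sums, whose part was not tested. The difference was -0.23 (95% interval -1.24 to 0.77), and 0.69 without controls 2 and 3, which sets miR_cKO against control 1 alone, the lowest library for Sema3a. Sema5b (chromosome 16, 35541145 to 35664732), known to inhibit neurite growth in the retina, was at 2.09, 1.68 and 6.20 RPKM in miR_cKO 1 to 3, against 1.20, 2.66 and 1.78 RPKM in controls 1 to 3. The single library miR_cKO 3 lay far above the rest, and the difference of 0.47 (95% interval -0.44 to 1.39) was 0.03 without it. Of 10 spinal cord markers, Mnx1 was at 0 in all libraries, and the sum was 3.88, 1.44 and 4.71 RPKM in miR_cKO 1 to 3, against 1.84, 2.03 and 2.76 RPKM in controls 1 to 3. It was highest in miR_cKO 3, and its part in the Sema5b level was not tested.

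The remaining secreted ligands were low to middling. Sema3g, an arterial ligand of Nrp2, averaged 8.41 ± 1.63 RPKM in miR_cKO and 7.91 ± 0.571 RPKM in controls. Sema3f averaged 3.71 ± 0.583 RPKM in miR_cKO and 4.38 ± 1.30 RPKM in controls, and Sema3b 1.31 ± 0.309 RPKM in miR_cKO and 1.53 ± 0.436 RPKM in controls (SD, n = 3 each). In class 5, Sema5a averaged 7.27 ± 0.470 RPKM in miR_cKO and 7.61 ± 1.58 RPKM in controls.

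Loss of the cluster left no family member past the threshold. Of the 29 members tested 0 were called (limma across all genes, Benjamini-Hochberg adjusted p under 0.05, lowest adjusted p = 0.891), where 0.061% of 13118 genes were called, 0.0534% higher and 0.00762% lower in miR_cKO. Voom on whole reads also called 0 members. At an unadjusted p under 0.05 there were 2 members, or 6.90%, against 5.16% of all genes tested. The groups did not overlap for 1 member, or 3.45%, against 10.9% of all genes tested. That member, Sema3d, was higher in miR_cKO. Of all genes tested 4.63% had groups apart and higher in miR_cKO, and 6.24% had them apart and lower. The median difference was -0.04 for the 19 ligands, -0.01 for the 10 receptors and -0.02 for all genes tested. Of the members 12 had a difference above 0, or 41.4%, against 40.4% of all genes. A p that misses the threshold does not show equal levels, and the intervals give the limits instead. Of 29 members 27 stayed within a difference of 1 either way on the log2(RPKM + 1) scale, all but Sema3a and Sema5b, and 17 stayed within 0.5. That scale understates the change of low genes, so a limit of 1 is wider than a 2-fold change for them. Sema4a, at 0.27 here, was at 0.48 with 0.1 RPKM added in place of 1. The median half-width of the 95% interval was 0.33 for members and 0.25 for all genes tested. Members with a site had a median difference of -0.0036, and those without had -0.04. Over all genes tested the medians were 0.0033 with a site and -0.04 without.

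**Figure D2:**
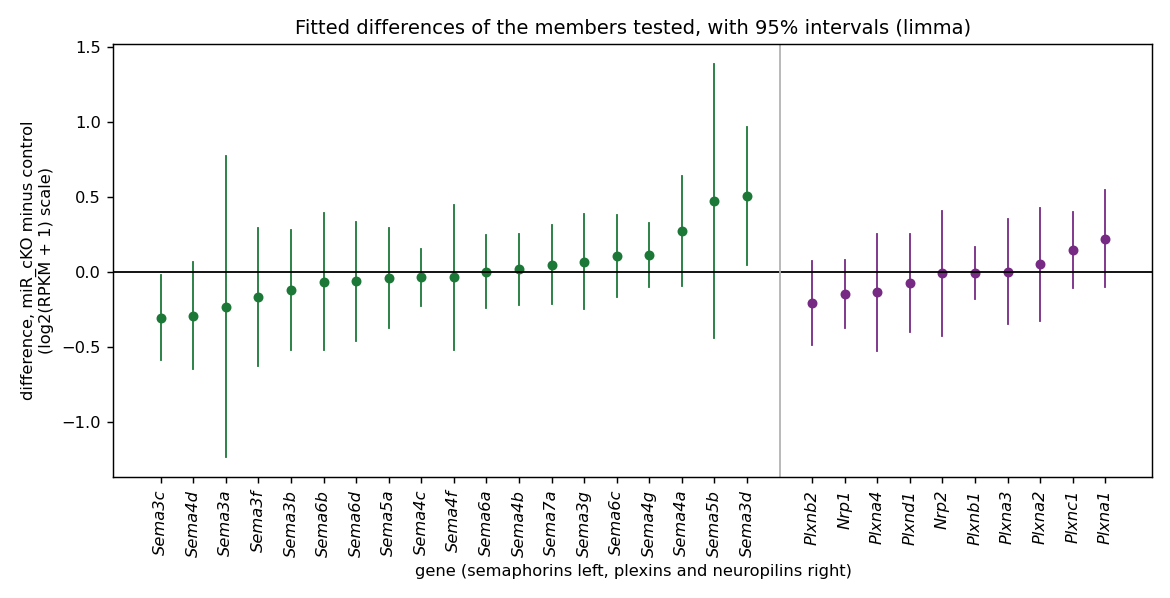
Fitted difference of each of the 29 members tested, miR_cKO minus control on the log2(RPKM + 1) scale, with semaphorins in green at the left and receptors in purple at the right. Points are limma estimates and bars are 95% intervals; the bars of Sema3d and Sema3c alone leave 0 out, and neither gene passed after adjustment.

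Libraries of the same genotype differed from each other, and several members went together. Plxna4 followed the sensory neuron sum through all 6 libraries, with miR_cKO 1, control 1 and control 3 on top, then miR_cKO 2, control 2 and miR_cKO 3. That order was looked for in all 29 members tested, and its share over all genes was not taken. It rests on near ties. The neuron sum was 3409 RPKM in control 3 and 3387 RPKM in miR_cKO 2, and Plxna4 was at 31.9 RPKM in miR_cKO 2 and 31.3 RPKM in control 2. For 6 members, Plxna3, Plxna4, Sema6d, Sema3c, Sema4d and Sema4f, the 3 highest libraries were also the 3 with the highest neuron sums, miR_cKO 1 and controls 1 and 3. That was 20.7% of members tested, and 1638 of the 13118 genes tested had the same 3 libraries on top. The summed level of 6 sympathetic neuron markers was also highest in those 3 libraries, at 32.2 RPKM in miR_cKO 1, against 23.2 and 38.1 RPKM in controls 1 and 3. The part of either marker list in the levels of these members was not tested.

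Another 3 members, Sema4c, Sema3f and Sema3a, had their highest libraries where mesenchyme markers summed highest, or 10.3% of members against 11.3% of all genes tested. Sema5a and Sema6b shared theirs with the sum of 8 endothelial markers, or 6.90% against 9.37%. The endothelial sum was 83.8, 121 and 90.4 RPKM in miR_cKO 1 to 3, against 83.8, 99.5 and 92.1 RPKM in controls 1 to 3. Among libraries, miR_cKO 1 held the highest value of 9 members and control 3 that of 7, while miR_cKO 3 held the lowest value of 8 members and control 1 that of 12.

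**Figure D3:**
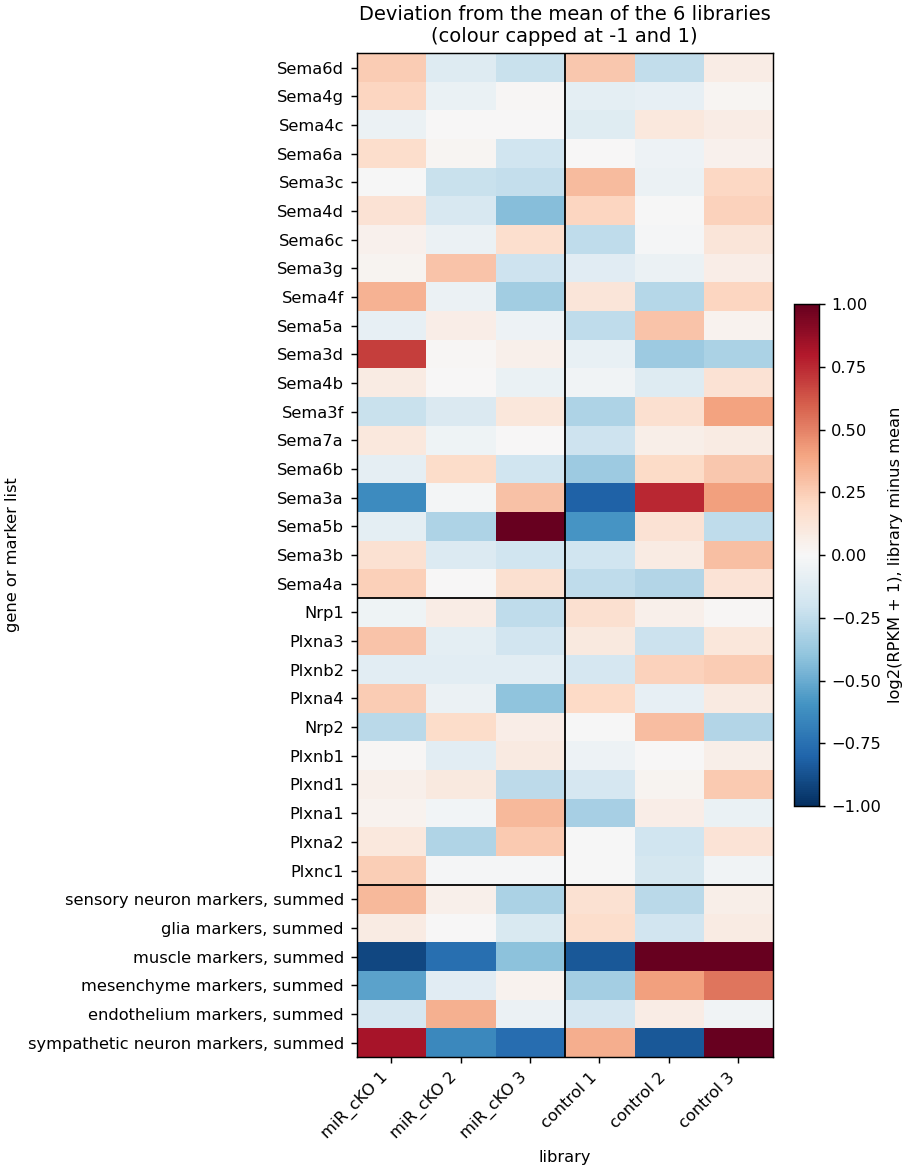
Deviation of each library from the mean of the 6 libraries on the log2(RPKM + 1) scale, with ligands on top, receptors in the middle and summed marker lists at the bottom, and miR_cKO libraries left of controls. Plxna4, Plxna3, Sema6d, Sema4d and Sema4f are red in miR_cKO 1 and in controls 1 and 3, as the sensory neuron sum is; Sema3d stands out in miR_cKO 1 and Sema5b in miR_cKO 3.

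Beyond the receptors, 48 partners and effectors of semaphorin signalling were listed, of which 44 were tested. None passed over all genes (limma, 0 of 44). At an unadjusted p under 0.05 there were 10, or 22.7%, against 5.16% of all genes tested, with 8 higher and 2 lower in miR_cKO. The same 10 had groups that did not overlap, against 10.9% of all genes. The lists were chosen with earlier results of these data known, so neither share is a test of the lists. The median difference over the 44 was -0.01, with 19 above 0 and 25 below. Among 14 kinases and cytoskeletal genes 4 had an unadjusted p under 0.05, among 20 cytoplasmic effectors 5, and among 10 co-receptors and adhesion partners 1.

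Fyn and Cfl1 had the smallest p-values of these lists. Fyn, a Src family kinase that acts in Sema3A signalling, was at 60.5, 59.9 and 53.9 RPKM in miR_cKO 1 to 3, against 47.5, 47.8 and 45.3 RPKM in controls 1 to 3 (difference 0.30, SE 0.07, limma adjusted p = 0.365). Cfl1, cofilin, which severs actin filaments, was at 897, 862 and 771 RPKM in miR_cKO 1 to 3, against 642, 665 and 669 RPKM in controls 1 to 3 (difference 0.35, SE 0.09, limma adjusted p = 0.445). In both genes every miR_cKO library was above every control, and neither passed over all genes. Pak1, a kinase downstream of Rac, averaged 40.3 ± 2.72 RPKM in miR_cKO and 34.0 ± 3.05 RPKM in controls, and the collapsin response mediator Crmp1 176 ± 11.7 RPKM in miR_cKO and 149 ± 7.80 RPKM in controls (SD, n = 3 each). Dpysl3, a relative of Crmp1 and the second highest gene of its list, averaged 216 ± 36.6 RPKM in miR_cKO and 197 ± 30.4 RPKM in controls.

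Of the effectors nearer the receptor, Rac1, which binds plexins directly, averaged 138 ± 5.86 RPKM in miR_cKO and 124 ± 3.84 RPKM in controls. Arhgef12, the exchange factor that links class B plexins to RhoA, averaged 20.7 ± 0.864 RPKM in miR_cKO and 17.9 ± 0.592 RPKM in controls. In each of these the miR_cKO libraries all lay above the controls. Rasa1, a Ras GTPase activator, averaged 22.2 ± 1.02 RPKM in miR_cKO and 19.3 ± 0.713 RPKM in controls. Itgb1, the integrin subunit that binds Sema7A, averaged 123 ± 5.28 RPKM in miR_cKO and 107 ± 3.04 RPKM in controls (SD, n = 3 each). The differences of these 4 genes lay between 0.15 and 0.20. Lower in miR_cKO were Sh3bp1, a Rac GTPase activator, at 1.99 ± 0.399 RPKM in miR_cKO and 3.27 ± 0.807 RPKM in controls, and the small GTPase Rhod, at 2.23 ± 0.427 RPKM in miR_cKO and 3.25 ± 0.681 RPKM in controls. RhoA itself, encoded by Rhoa, averaged 127 ± 9.68 RPKM in miR_cKO and 121 ± 0.854 RPKM in controls, and the adhesion partner Cntn2 130 ± 46.9 RPKM in miR_cKO and 151 ± 37.5 RPKM in controls.

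Seed sites were searched in these messages too, a search chosen after their values were seen. Of the 44 effectors and partners 22 carried a site, or 50.0%, beside 36.2% of all genes tested, and the median difference was 0.10 with a site and -0.03 without. Sites were found in 7 of the 8 higher genes, all but Crmp1, and in both lower genes, Rhod and Sh3bp1. With principal transcripts alone, 18 of the 44 carried a site, or 40.9%, beside 33.7% of all genes tested. Those 18 included 7 of the 8 higher genes and 0 of the 2 lower genes.

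An 8mer was found in 10 of the 44, or 22.7%, beside 9.98% of all genes tested. Of these 10 genes 6 had a difference above 0 and 4 had one below 0. Among the 10 genes with an unadjusted p under 0.05, an 8mer was in 4 of the 8 higher genes and in 1 of the 2 lower genes, Rhod. The other 5 genes with an 8mer were L1cam (difference 0.38), Mras (0.12), Farp1 (-0.0015), Mical2 (-0.16) and Plxdc2 (-0.16), and none of them reached an unadjusted p under 0.05. The 8mer of Rhod is not in the 3 prime UTR of its principal transcript, whereas those of the 4 higher genes are in theirs. The 8mers of these higher and lower genes are printed with flanks of 11 bases and the match in capitals (GENCODE M21, mm10).
Cfl1, higher: cttcaccccagTTGCCAAAcatccctccca
Rac1, higher: cagattaaaaaTTGCCAAAataccttctga
Arhgef12, higher: ttgcactgatgGTGCCAAAgggctctgagt
Rasa1, higher, first site: ctcctttgctcTTGCCAAAaagaaaaaaat
Rasa1, higher, second site: agtatatccaaTTGCCAAAgttttgctgtc
Rhod, lower: gactactgacaTTGCCAAAagggctgcagc
All but that of Arhgef12 match miR-182, and that of Arhgef12 matches miR-96. They lie at chr19:5493618-5493647 (Cfl1, plus strand), chr5:143506688-143506717 (Rac1, minus strand), chr9:42968036-42968065 (Arhgef12, minus strand), chr13:85216017-85216046 and chr13:85215752-85215781 (Rasa1, minus strand), and chr19:4426321-4426350 (Rhod, minus strand). Among tested genes of like 3 prime UTR length, an 8mer was in 9.79% for Cfl1, 20.7% for Rac1, 30.3% for Arhgef12, 8.23% for Rasa1 and 4.28% for Rhod. For the higher genes with 7mers alone, a site of any kind was in 30.1% of genes of like length for Itgb1, 38.1% for Fyn and 31.7% for Pak1. For the higher genes with an 8mer, it was in 39.5% for Cfl1, 66.5% for Rac1, 82.8% for Arhgef12 and 35.0% for Rasa1. For the lower genes, it was in 20.6% for Rhod and 9.97% for Sh3bp1. Whether the sites bear on these levels was not tested.

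**Figure D4:**
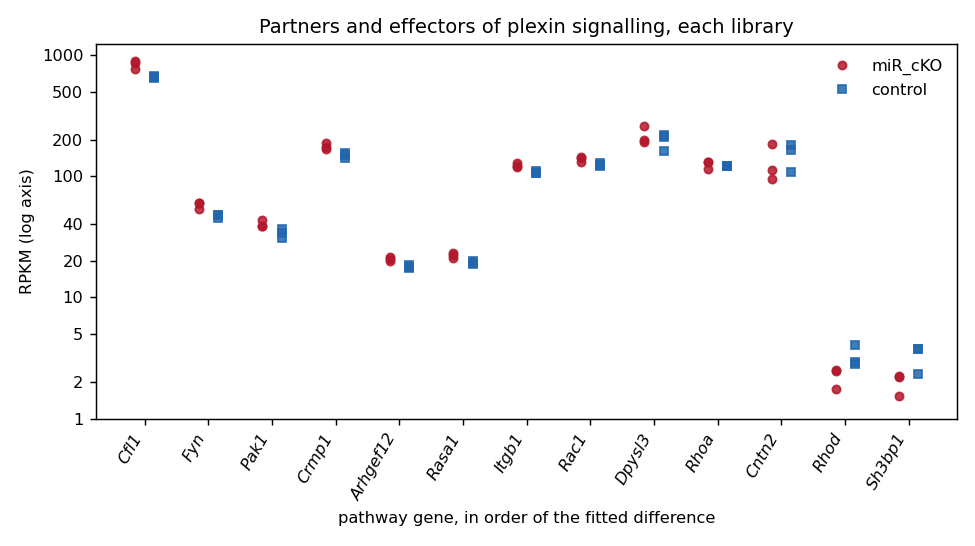
Level in RPKM on a log axis of the named partners and effectors of plexin signalling, in order of the fitted difference from high to low. Red circles are the 3 miR_cKO libraries and blue squares the 3 control libraries; in the first 8 genes every miR_cKO library is above every control, and in Rhod and Sh3bp1 every one is below.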

How the data were processed

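The table deposited by the authors holds 1 value per gene and library, with decimal commas and no unit in its header. The submitters' processing notes name Bowtie as aligner, without a version, and mm10 as the build. How reads were counted, on which annotation and strand, and what became of reads that map to several places is not stated. The deposited values were read as RPKM because a gene's values rose in fixed steps that were smaller the longer its transcript (across 1826 single-transcript genes, which are not independent, Spearman rho was -0.901); they could as well be FPKM. Whole reads, within 0.01 read plus rounding, were found for 98.7% of genes above 0 in at least 4 libraries and for all 31 members, which held 27 to 11860 reads per library (median 1002). By the steps, miR_cKO libraries held about 20710000 to 22360000 reads and controls 20060000 to 24120000. Every pair of libraries within a group differed beyond sampling error (chi-square per gene 12.0 to 28.8). Separate preparations of the same RNA could also differ so. Each library was treated as a replicate, without a check that it was independent of the others.

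Values were transformed to log2(RPKM + 1), which understates the change of low genes. Genes with at least 1 RPKM in at least 3 libraries were kept, which left 29 members; Sema3e and Plxnb3 did not pass. The group comparison used limma 3.58.1 under R 4.3.3 (trend and robust settings, Benjamini-Hochberg over all 13118 genes, threshold 0.05), tested on simulated data. Sites were searched in GENCODE M21, which uses mm10, with Python 3.11.15, NumPy 2.4.6 and pandas 2.3.3; figures used matplotlib 3.10.9. Exons of Plxna4, Plxna1, Plxnb1 and Sema4c overlap genes on the opposite strand, and those of Nrp1, Sema4a and Plxnc1 overlap small or provisional genes on their own strand, so their values are less certain. The members, gene lists and tests were chosen with earlier results of these data known. Values in every library are given for members with an unadjusted p under 0.05 or groups apart, the 5 highest ligands and receptors, and the 4 with the largest range among those averaging 1 RPKM or more; for pathway lists, genes with an unadjusted p under 0.05 and the 2 highest of each list are named. Sema4d, Plxna1 and other members are given by mean and SD.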

Additional observations from a re-analysis of the deposited data

How the results depend on the processing

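No family member was called under any of the 16 alternatives run. Of all genes limma called 8 (677 at an unadjusted p under 0.05), and the count was 2 with median centring, 0 with upper quartile scaling, without trend, with the replicate block, without controls 2 and 3 or with voom on whole reads (chosen after seeing the data), and 34 with array weights; with 1 library left out it ran from 0 to 2, where the looser rule gave 440 to 1023. The fits with a count of 0 held 395 to 847 genes at an unadjusted p under 0.05. Members with a site numbered 10, 0 with 8mers alone, and 11 in principal transcripts, an alternative chosen after seeing the data.

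Of 27 named genes 18 kept their sign in every fit that gave a value and 9 did not, none of them past the threshold. With median centring and upper quartile scaling Plxna3 was at 0.030 and 0.013 and Nrp2 at 0.018 and 0.0013; with array weights Nrp2 was at 0.16 and Sema6a at -0.0060; with voom Plxna3 was at 0.0058. Without controls 2 and 3 Plxnb2 was at 0.067, Sema4c at 0.10, Sema6a at -0.0037 and Sema3a at 0.69. That fit leaves control 1 alone, which is assumed to vary like the other group. With a library left out Nrp1 ran from -0.22 to -0.06 and Sema4g from 0.027 to 0.17, and with array weights they were at -0.056 and 0.016. With a library left out Plxna3 ran from -0.14 to 0.095, Sema6d from -0.21 to 0.057, Plxna4 from -0.30 to 0.029, Nrp2 from -0.16 to 0.14, Sema4c from -0.11 to 0.0078, Sema6a from -0.089 to 0.10, Sema3a from -0.70 to 0.085, Sema5b from 0.03 to 0.74, Sema3d from 0.28 to 0.62, Plxnb2 from -0.35 to -0.13, Sema4a from 0.19 to 0.41, Cntn2 from -0.51 to -0.04, Rhoa from 0.02 to 0.12 and Dpysl3 from -0.0018 to 0.22. The cause was not tested.

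Same-numbered libraries did not all deviate together (correlation across genes 0.36, 0.33 and -0.22), and miR_cKO 2 was the only miR_cKO library to correlate best with its own number. The labels state no pairing by number. These correlations cannot exclude one, since deviations of 3 libraries within a group are not independent. With the replicate block 0 genes passed. A mean of at least 10 RPKM kept 16 of the 29 members and gave no value for the named genes Sema3d, Sema3a, Sema5b, Sema4a, Rhod and Sh3bp1. Voom, run only on genes with whole reads, gave no value for Itgb1, Cntn2, Rac1, Rhoa, Crmp1 and Dpysl3. The signs of those genes were therefore not checked in that fit. With 3 libraries a group, the median half-width of the members' 95% intervals was 0.33, and after adjustment over all genes even the 0.50 of Sema3d was not called.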
